A study of Mus musculus with 9 samples.

Results

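Phenylbutyrate has to be joined to coenzyme A before it can be metabolised. The genes described here encode enzymes of families that handle acids like it at that step and at the last one, the transfer to glycine. Whether each of them acts on phenylbutyrate was not tested. The genes are the medium-chain acyl-CoA synthetases Acsm1, Acsm2, Acsm3, Acsm4 and Acsm5, the glycine N-acyltransferase Glyat, and its kidney relative Keg1. The 7 genes were chosen by name and by this role, and they are 7 of 54532 genes measured. The study compared kidneys of C57BL/6J male mice, 4 months old, by poly(A) RNA sequencing with strand-marking libraries. The first group (HU + 4-PBA) was hindlimb unloaded, that is, suspended so that the hind legs carried no weight, and received 4-phenylbutyric acid (4-PBA) at 100 mg per kg a day by intraperitoneal injection. The second (HU) was unloaded and received the vehicle. The third (GC) stayed on the ground as an untreated control, so that unloading and vehicle cannot be told apart in HU against GC. Each group had 3 libraries, and the sources used here do not say whether a library was 1 mouse, so p-values measure only the spread between these libraries.

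The medium-chain synthetases work in the mitochondrial matrix, where they use ATP to link medium-chain fatty acids and aromatic carboxylic acids such as benzoate to coenzyme A. Phenylbutyrate activated in this way is shortened by a round of beta-oxidation to phenylacetyl-CoA. Glycine N-acyltransferases then move such acyl groups onto glycine, which frees the coenzyme A and gives a product that leaves in the urine. In mammals this detoxifying route runs in liver and in kidney, where the proximal tubule is its main site.

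The 9 libraries differed in ways that touch every value below. Reads assigned to genes numbered 8766613 to 14854306 in HU + 4-PBA, 7595631 to 8374433 in HU and 11485217 to 15141784 in GC. Transcripts of the mitochondrial genome took 15.2, 13.7 and 67.1% of these reads in HU + 4-PBA, 63.7 to 79.3% in HU and 14.8 to 49.7% in GC. HU + 4-PBA library 3 therefore stood with the HU libraries on this measure, and GC library 3, at 49.7%, stood between. Levels are given as deposited, in FPKM, which are sequenced fragments per kilobase of exon divided by a constant of each library. That constant was not the library's read total: it came to 71.1 to 171% of the reads assigned to genes in HU + 4-PBA, 41.0 to 81.0% in HU and 95.3 to 158% in GC. Of the reads outside the mitochondrial genome it came to 179 to 216% in HU + 4-PBA, 198 to 234% in HU and 184 to 189% in GC. This scaling left the median log2 difference over all genes tested at -0.03 for HU against GC and 0.02 for HU + 4-PBA against HU.

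The synthetase genes lie in a cluster. Acsm5, Acsm2, Acsm1, Acsm4 and Acsm3 follow each other on the plus strand of chromosome 7 (mm10), from 119519463 to 119787513, within 268.1 kb. Glyat and Keg1 lie on the plus strand of chromosome 19, from 12633308 to 12719902. Over their coding sequence, pairs of synthetase genes shared 59.9 to 65.7% of aligned bases, and Glyat and Keg1 shared 72.0%. No stretch of 75 bases in Acsm1, Acsm2, Acsm4 or Glyat transcripts occurred in any other gene, so reads could be told apart between members. The other 3 genes share exon bases with genes transcribed from the opposite strand. Acsm1 is also overlapped by opposite-strand genes, Gm19950 and Gm45792, but shares 0 exon bases with them. Of Acsm3 exon bases, 39.8% lay opposite exons of Eri2, of Keg1 exon bases 8.67% opposite Gm15962, and of Acsm5 exon bases 2.74% opposite Pdilt. Eri2 itself was listed at 0 to 0.946 FPKM, and whether the counting used strand is not stated.

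The start regions of Acsm2 and Acsm3, 2 genes of the cluster with Acsm1 and Acsm4 between them, are printed because their differences between HU and GC had opposite signs, as the values below show. Each runs from 250 bases before the start to 50 after it on the plus strand, is taken from RefSeq (GRCm38.p6), and has in capitals the letters of 3 motifs searched on both strands: GTTAAT, the core of the HNF1 site, TATAAA, the TATA box, and CAAAGTCCA, an HNF4-type site. HNF1 and HNF4 factors are the classical activators of proximal tubule genes.
Acsm2, first promoter (chr7:119554090-119554389): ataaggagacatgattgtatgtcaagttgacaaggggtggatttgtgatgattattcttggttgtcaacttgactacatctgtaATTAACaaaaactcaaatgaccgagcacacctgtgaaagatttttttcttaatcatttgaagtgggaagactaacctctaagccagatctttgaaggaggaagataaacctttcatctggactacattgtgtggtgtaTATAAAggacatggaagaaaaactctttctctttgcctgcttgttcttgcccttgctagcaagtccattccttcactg
Acsm3 (chr7:119760673-119760972): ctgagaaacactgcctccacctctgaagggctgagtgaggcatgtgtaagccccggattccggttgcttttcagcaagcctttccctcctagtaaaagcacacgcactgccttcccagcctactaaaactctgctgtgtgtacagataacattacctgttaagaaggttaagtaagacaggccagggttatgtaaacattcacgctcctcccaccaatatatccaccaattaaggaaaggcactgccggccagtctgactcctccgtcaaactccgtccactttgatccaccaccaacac
The first Acsm2 promoter, at the gene's annotated start, held GTTAAT on the minus strand at -166, where it reads ATTAAC, and TATAAA at -28. RefSeq lists a second Acsm2 promoter (chr7:119561458-119561757), which held none of the 3 motifs, and neither did the Acsm3 window. Across the 8 promoters listed for the 7 genes, GTTAAT and TATAAA each occurred in 1, this first Acsm2 promoter, and CAAAGTCCA in 0. Among 32851 mouse promoters of the same length, 7.10% held GTTAAT, 13.6% held TATAAA and 0.475% held CAAAGTCCA.

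Acsm2, the synthetase best known from the kidney, was the most abundant of its family. It was listed at 243, 189 and 32.4 FPKM in HU + 4-PBA, at 15.7, 37.2 and 41.9 FPKM in HU, and at 166, 197 and 123 FPKM in GC. All HU libraries lay below all GC libraries, while HU + 4-PBA was split, with libraries 1 and 2 at the GC level and library 3 within the HU range. The log2 difference was -2.41 ± 0.69 (SE, n = 3 a group) for HU against GC, with an adjusted p of 0.0556 from limma's moderated test. For HU + 4-PBA against HU it was 1.94 ± 0.69, with an adjusted p of 0.166. Fold changes here are on the log2(FPKM + 1) scale, which shrinks those of low genes. Without HU + 4-PBA library 3 the difference between HU + 4-PBA and HU was 2.84, and its adjusted p was 0.00480.

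Acsm1, which activates butyrate and other medium-chain acids, was listed at 41.8, 27.5 and 10.2 FPKM in HU + 4-PBA, at 8.52, 25.3 and 9.73 FPKM in HU, and at 39.8, 42.3 and 37.4 FPKM in GC. The GC libraries lay close together and above all HU libraries, and HU + 4-PBA overlapped both. Its log2 difference was -1.55 ± 0.52 for HU against GC (adjusted p = 0.0832, limma) and 0.78 ± 0.52 for HU + 4-PBA against HU (adjusted p = 0.429, limma). Acsm5, a less studied member, was listed at 9.58, 13.2 and 12.4 FPKM in HU + 4-PBA, at 1.28, 9.56 and 4.19 FPKM in HU, and at 15.9, 13.9 and 12.3 FPKM in GC. Here every HU + 4-PBA library lay above every HU library, library 3 included, although 9.58 and 9.56 FPKM nearly met. Behind those HU values stood 29, 113 and 108 reads, the lowest of the genes tested here. The log2 difference of Acsm5 was -1.58 ± 0.47 for HU against GC (adjusted p = 0.0611, limma) and 1.34 ± 0.47 for HU + 4-PBA against HU (adjusted p = 0.160, limma).

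Acsm3, first described as the SA gene in studies of hypertensive rats, had its highest mean in HU. It was listed at 22.5, 5.71 and 4.87 FPKM in HU + 4-PBA, at 13.2, 24.7 and 15.1 FPKM in HU, and at 6.03, 14.8 and 3.72 FPKM in GC. The groups overlapped, since HU + 4-PBA library 1 and GC library 2 fell within the HU range. The log2 difference was 1.16 ± 0.59 for HU against GC (adjusted p = 0.216, limma), with a 95% interval of -0.15 to 2.48. For HU + 4-PBA against HU it was -0.89 ± 0.59, with an adjusted p of 0.429 from limma. When libraries were scaled by total reads instead, these differences were 0.17 and 0.047. Acsm4, known from the olfactory epithelium of rats, was barely detected. It had 0 reads in each HU + 4-PBA library, 0, 7 and 4 reads in HU, and 0, 3 and 0 reads in GC, where a count of 0 allows up to 3 reads. It did not pass the filter of 1 FPKM in 3 libraries and was not tested, which leaves 6 members among 12642 genes tested.

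**Figure D1:**
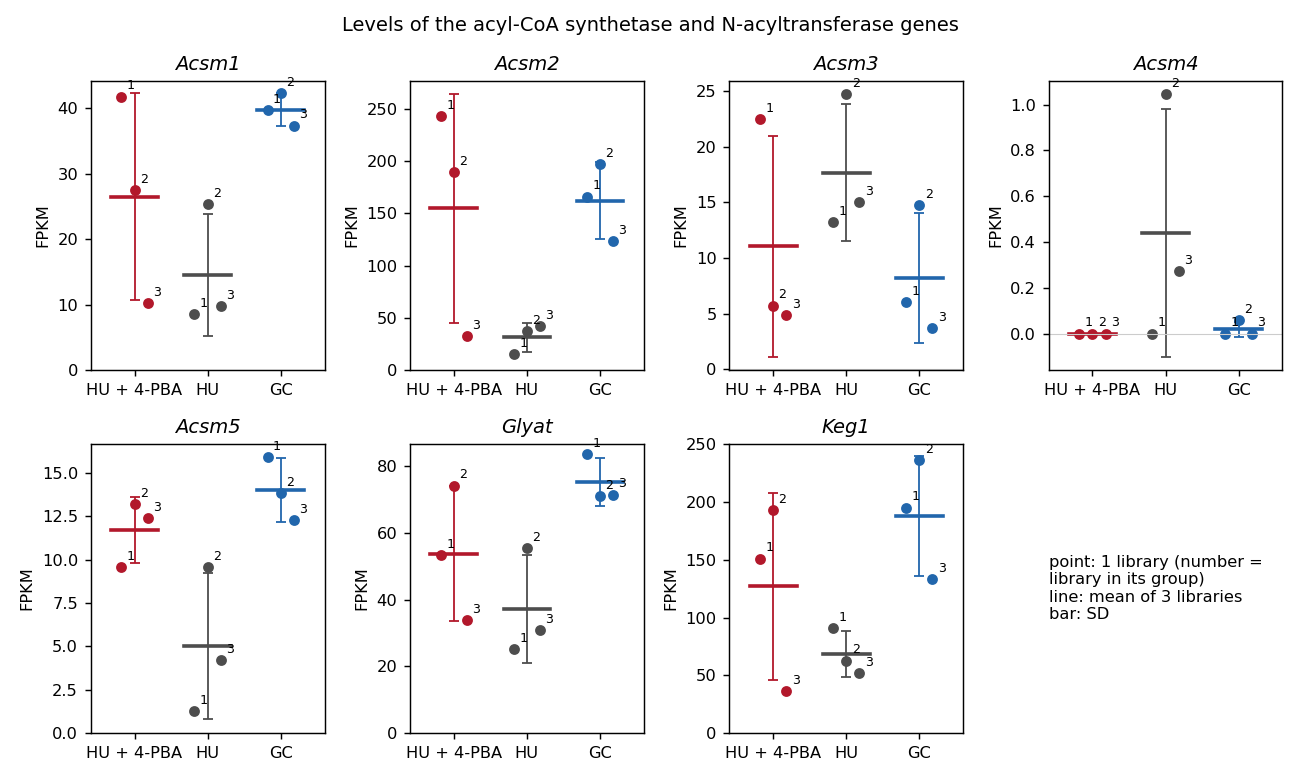
Level of each of the 7 genes in every library, in FPKM, with HU + 4-PBA, HU and GC from left to right; points are libraries, horizontal lines group means and error bars SD (n = 3). Acsm1, Acsm2, Acsm5, Glyat and Keg1 lie lower in every HU library than in every GC library, while Acsm3 has its highest mean in HU.

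The acyltransferases stood lower in HU as well. Glyat, which makes hippurate from benzoyl-CoA and glycine, was listed at 53.3, 74.2 and 33.9 FPKM in HU + 4-PBA, at 25.3, 55.5 and 30.8 FPKM in HU, and at 83.7, 71.0 and 71.5 FPKM in GC. Its HU libraries all lay below its GC libraries, by less than those of Acsm2. The log2 difference was -1.08 ± 0.37 for HU against GC (adjusted p = 0.0906, limma) and 0.53 ± 0.37 for HU + 4-PBA against HU (adjusted p = 0.453, limma). Keg1, named for its expression in kidney and related to Glyat in sequence, was listed at 151, 193 and 36.3 FPKM in HU + 4-PBA, at 90.5, 62.7 and 51.6 FPKM in HU, and at 195, 237 and 133 FPKM in GC. HU + 4-PBA library 3 held the lowest Keg1 level of all 9 libraries. The log2 difference of Keg1 was -1.45 ± 0.57 for HU against GC (adjusted p = 0.127, limma) and 0.62 ± 0.57 for HU + 4-PBA against HU (adjusted p = 0.585, limma). Without that library the difference between HU + 4-PBA and HU was 1.35, with an adjusted p of 0.0375 from limma.

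For HU against GC, 0 of the 6 genes tested passed an adjusted p of 0.05, where 10.2% of all genes did. At an unadjusted p under 0.05 the count was 5 of 6, all lower in HU, against 29.8% of all genes. With limma-voom, run on reads recovered from the FPKM values, 3 of the 6 passed, namely Acsm1, Acsm2 and Acsm5, against 10.5% of all genes. The HU libraries lay below the GC libraries without overlap for 5 of the 6, while 19.4% of all genes showed that order. Leaving out HU + 4-PBA library 3, which belongs to neither group but enters the shared estimate of spread, the filter and the adjustment, brought the count to 5: Acsm1, Acsm2, Acsm5, Glyat and Keg1. In that fit 19.8% of 11994 genes passed. Leaving out HU library 2 brought it to 2, with 6.74% of all genes. Scaling by total reads, which moved the median of all genes to -0.78, brought it to 4, Acsm1, Acsm2, Acsm5 and Glyat, with 17.7% of all genes. With the mitochondrial share as a covariate 0 passed, against 0.783% of all genes, the difference of Acsm2 was -0.74 and that of Keg1 was 0.01.

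For HU + 4-PBA against HU, again 0 of 6 passed, against 2.69% of all genes. At an unadjusted p under 0.05 the count was 2, Acsm2 and Acsm5, against 20.1% of all genes, and limma-voom called 0. Only Acsm5 of the 6 lay higher in all HU + 4-PBA libraries than in all HU libraries, an order shown by 10.1% of genes. Without HU + 4-PBA library 3 the count was 2, Acsm2 and Keg1, where 11.5% of all genes passed. With the mitochondrial share as a covariate the difference was 0.43 for Acsm2, 1.48 for Acsm5 and -0.71 for Keg1, and 0 passed. The 2 contrasts share the HU libraries, so low values there enter both with opposite sign.

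No HU library had a mitochondrial share as low as any GC library, so HU and GC could not be set side by side at a matched share, and the share and the group cannot be told apart there. HU + 4-PBA library 3 did match HU, with 67.1% against 63.7 to 79.3%. In that single library Acsm1 (10.2 FPKM), Acsm2 (32.4 FPKM) and Glyat (33.9 FPKM) lay within the HU range. Acsm5 (12.4 FPKM) lay above the HU range, and Acsm3 (4.87 FPKM) and Keg1 (36.3 FPKM) lay below it.

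For HU + 4-PBA against GC, 0 of 6 passed with limma, 0 with limma-voom and 0 at an unadjusted p under 0.05, against 0% of all genes with adjustment and 1.31% without. The log2 differences ranged from -0.83 for Keg1 to 0.28 for Acsm3, and the groups overlapped for each of the 6, while 8% of all genes showed no overlap. The 95% interval was -2.02 to 1.08 for Acsm2 and -1.93 to 0.39 for Acsm1, so that differences of over 2-fold in either direction for Acsm2 lay within it. For Acsm5 it was -1.30 to 0.81. The median over the 6 genes was -1.50 for HU against GC, 0.70 for HU + 4-PBA against HU and -0.51 for HU + 4-PBA against GC, beside medians of -0.03, 0.02 and -0.0039 over all genes.

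**Figure D2:**
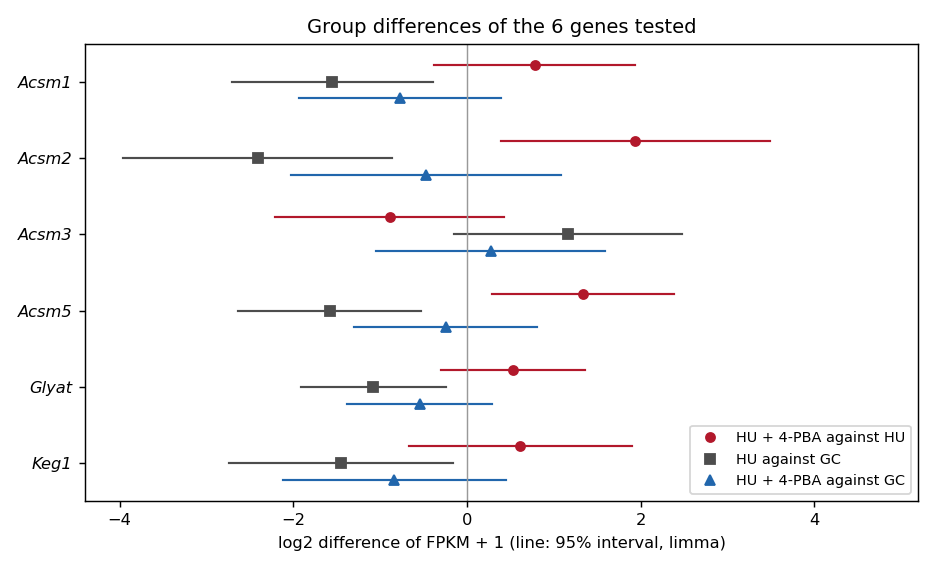
Log2 difference, on the log2(FPKM + 1) scale, of the 6 genes tested in HU + 4-PBA against HU, HU against GC and HU + 4-PBA against GC; points are limma estimates and bars are 95% intervals. For HU against GC the intervals of Acsm1, Acsm2, Acsm5, Glyat and Keg1 lie below 0 and that of Acsm3 reaches from -0.15 to 2.48.

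Ordered by group mean, the 6 genes stood differently in the 3 groups, but the order also varied between libraries of a group. HU + 4-PBA library 2 held the same order as GC libraries 1 and 3. Acsm2 lay above Keg1 only in HU + 4-PBA library 1. In HU + 4-PBA the means were 155 ± 109 FPKM for Acsm2, 127 ± 81.3 for Keg1, 53.8 ± 20.2 for Glyat, 26.5 ± 15.8 for Acsm1, 11.7 ± 1.91 for Acsm5 and 11.0 ± 9.96 for Acsm3 (SD, n = 3), and each gene overlapped the next. In HU the means were 68.3 ± 20.1 FPKM for Keg1, 37.2 ± 16.1 for Glyat, 31.6 ± 14.0 for Acsm2, 17.7 ± 6.18 for Acsm3, 14.5 ± 9.38 for Acsm1 and 5.01 ± 4.20 for Acsm5 (SD, n = 3), again with each overlapping the next. In GC the means were 188 ± 52.1 FPKM for Keg1, 162 ± 37.1 for Acsm2, 75.4 ± 7.18 for Glyat, 39.8 ± 2.48 for Acsm1, 14.0 ± 1.83 for Acsm5 and 8.17 ± 5.83 for Acsm3 (SD, n = 3). There only Keg1 with Acsm2 and Acsm5 with Acsm3 overlapped. By rank among all genes of a library, Acsm2 stood at 89, 189 and 834 in HU + 4-PBA, between 639 and 1785 in HU and between 168 and 244 in GC.

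The makeup of the synthetase family was also uneven across libraries, and a share or ratio within a library does not depend on how that library was scaled. Acsm2 made up 76.7, 80.3 and 54.1% of the summed FPKM of the 5 synthetase genes in HU + 4-PBA, 40.5, 38.0 and 58.9% in HU, and 69.8 to 73.5% in GC. Acsm3 made up 7.12, 2.43 and 8.14% in HU + 4-PBA, 34.2, 25.3 and 21.2% in HU, and 2.65, 5.51 and 2.11% in GC. The HU libraries thus lay above all others for Acsm3, HU + 4-PBA library 3 included. The ratio of Acsm3 to Acsm2 was 0.0303 to 0.151 in HU + 4-PBA, 0.359 to 0.843 in HU and 0.0302 to 0.0750 in GC. In HU + 4-PBA library 3, Acsm5 made up 20.7% of the family. The pair Acsm3 and Acsm2 was chosen after its values were seen, and its ratio is given without a test.

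**Figure D3:**
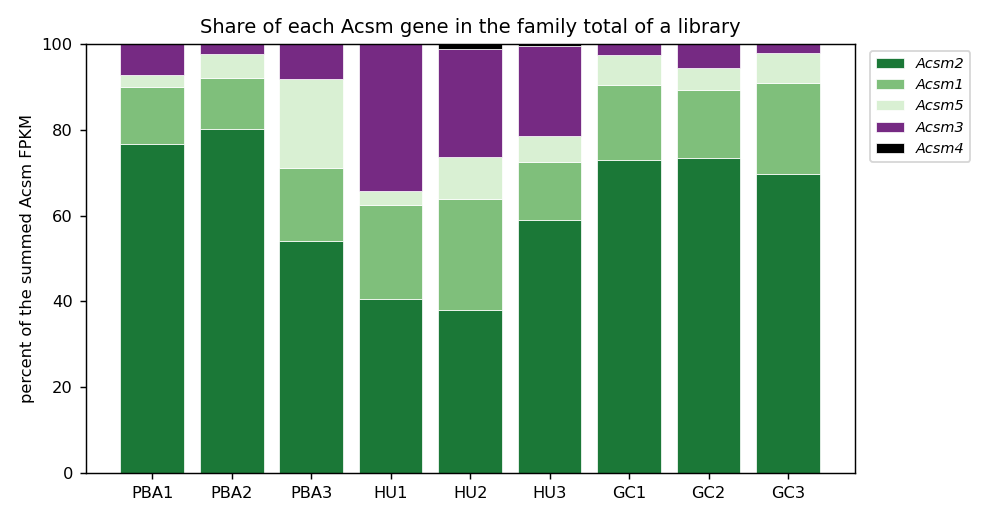
Share of the summed FPKM of the 5 synthetase genes taken by each, in percent, in every library, with HU + 4-PBA, HU and GC from left to right. Acsm3 takes 21.2 to 34.2% in HU and at most 8.14% in the other libraries.

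The ratio of Keg1 to Glyat was 2.84, 2.61 and 1.07 in HU + 4-PBA, 3.58, 1.13 and 1.68 in HU, and 2.33, 3.33 and 1.86 in GC, and all groups overlapped. Summed over the 7 genes, the level was 521, 503 and 130 FPKM in HU + 4-PBA, 155, 216 and 153 FPKM in HU, and 507, 576 and 381 FPKM in GC. HU + 4-PBA library 3 held the lowest sum.

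Markers of the proximal tubule were lower as a sum in every HU library than in every other library. Acsm1, Acsm2, Acsm5, Glyat and Keg1 also had their lowest group mean in HU, while Acsm3 had its highest there. The summed FPKM of 12 such markers was 2460, 2775 and 788 in HU + 4-PBA, 369.8, 602 and 522 in HU, and 3035, 2777 and 2573 in GC. Slc27a2 and Slc22a6, described further on among the genes of the route, are on this list. Of the 12 markers, 9 fell in HU against GC, where 4.9% of all genes fell. In HU + 4-PBA against HU 4 rose, where 1.16% of all genes rose. Gatm, by contrast, had its highest mean in HU, at 73.2 FPKM. In whole kidney, fewer cells of a type and less RNA per cell cannot be told apart. Set against this sum, Acsm2 stood at 4.11 to 9.86% in HU + 4-PBA, 4.25 to 8.02% in HU and 4.79 to 7.10% in GC, so the groups overlapped. Glyat stood at 2.17 to 4.30% in HU + 4-PBA, 5.89 to 9.22% in HU and 2.56 to 2.78% in GC. Keg1 stood at 4.61 to 6.97%, 9.87 to 24.5% and 5.17 to 8.52% in HU + 4-PBA, HU and GC. Acsm1 stood at 0.990 to 1.70% in HU + 4-PBA, 1.86 to 4.21% in HU and 1.31 to 1.52% in GC, and Acsm3 at 0.206 to 0.916%, 2.88 to 4.11% and 0.145 to 0.532% in that order of groups. The list was known when these shares were computed, and they carry no test. Relative to these markers, Acsm1, Acsm3, Glyat and Keg1 were higher in every HU library than in every other library. Acsm5 overlapped across groups, at 0.390 to 1.58%, 0.346 to 1.59% and 0.478 to 0.525%. The sum leaned on Miox, with 37.8% of it on average, and Slc34a1, with 21.1%.

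**Figure D4:**
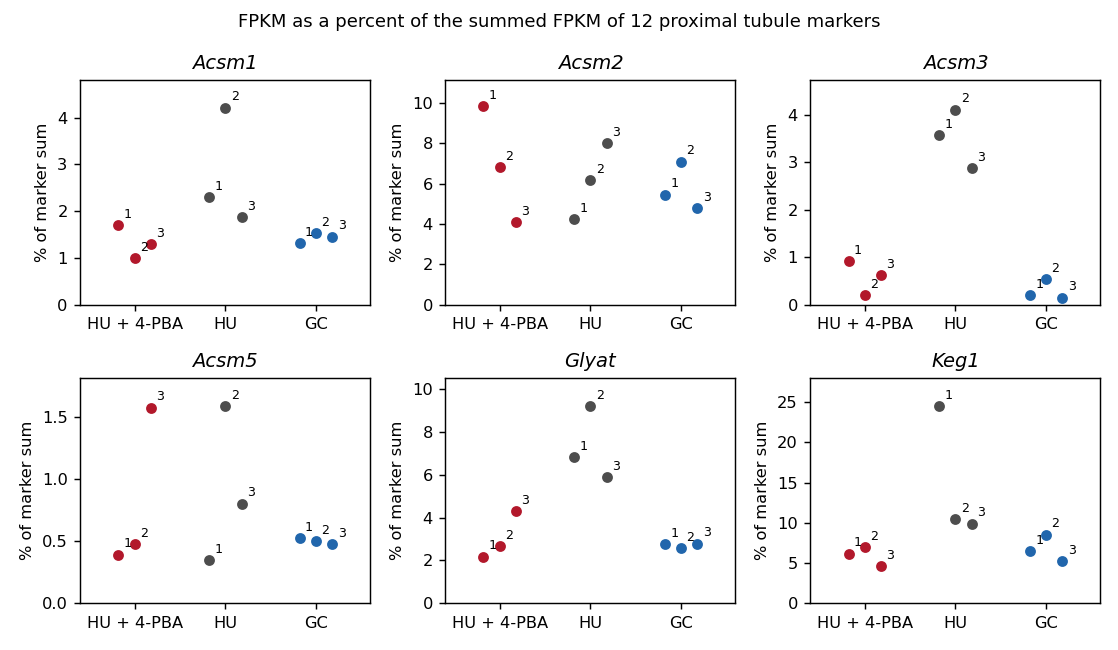
Level of the 6 genes that passed the filter as a percent of the summed FPKM of 12 proximal tubule markers in every library, with HU + 4-PBA, HU and GC from left to right. Acsm1, Acsm3, Glyat and Keg1 lie highest in HU, while Acsm2 and Acsm5 overlap across the groups.

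Other marker lists moved too, and their part in the results was not tested. The sum of 6 stroma markers, led by Bgn, was 29.3 to 397 FPKM in HU + 4-PBA, with 397 in library 3, 259.5 to 581 FPKM in HU and 36.7 to 74.5 FPKM in GC. Of these 6, 1 passed as higher in HU against GC, where 5.32% of all genes did. All 6 had a positive log2 difference there, with a median of 2.46 beside -0.03 over all genes. Hepatocytes also express these enzymes. The sum of 12 hepatocyte markers was 16.6 to 91.5 FPKM in HU + 4-PBA, 20.0 to 152 in HU and 57.5 to 71.1 in GC, with Ttr giving 55.9% of it and 1 to 8 of the markers at 0 in a library. Alb, the albumin gene, went the other way from Ttr: it was listed at 0.906, 1.21 and 0.822 FPKM in HU + 4-PBA, at 42.6, 9.60 and 4.34 FPKM in HU, and at 1.62, 1.03 and 1.25 FPKM in GC. It was the 1 of 6 hepatocyte markers tested that rose in HU against GC (adjusted p = 0.0322, limma) and fell in HU + 4-PBA against HU (adjusted p = 0.0479, limma). Of all genes, 5.32% rose in the first contrast and 1.53% fell in the second. HU library 1, where Alb peaked, also held the highest values of Apoa2 (23.1 FPKM), Fgb (15.6 FPKM), Fgg (14.9 FPKM) and Serpina1c (13.7 FPKM). The same held for Ahsg (9.38 FPKM), Fga (9.12 FPKM), Apoa1 and Cps1, but not for Ttr, Apoh and Tat. Thick limb markers summed to 103 to 748 FPKM, 135 to 205 FPKM and 249 to 462 FPKM in HU + 4-PBA, HU and GC, and distal tubule and collecting duct markers to 233 to 426, 116 to 267 and 273 to 339 FPKM. Of 8 distal tubule and collecting duct markers, 3 fell in HU against GC (Slc12a3, Hsd11b2 and Slc26a4), where 4.9% of all genes fell. In HU + 4-PBA against HU 2 rose (Slc12a3 and Slc26a4), where 1.16% of all genes rose. Lower levels in HU were thus not limited to proximal tubule markers. Sums of macrophage markers were 49.0 to 94.4 FPKM in HU + 4-PBA, 21.2 to 60.0 in HU and 40.7 to 56.2 in GC, and those of endothelium 18.5 to 28.2, 16.1 to 45.9 and 17.3 to 26.9 FPKM. Urothelium gave 25.2 to 159 FPKM in HU + 4-PBA, 6.96 to 42.1 in HU and 1.21 to 17.5 in GC, and adipocytes 7.67 to 98.8, 12.3 to 14.5 and 6.30 to 112 FPKM. Podocyte markers summed to 6.88 to 39.1 FPKM in HU + 4-PBA, 5.59 to 9.49 in HU and 23.6 to 43.6 in GC. Of these 4 markers, 1 fell in HU against GC, where 4.9% of all genes fell. In HU, 3 lay below GC without overlap, an order that 19.4% of all genes showed. In HU + 4-PBA against HU 0 were called, against 2.69% of all genes. In the thick limb, macrophage, endothelium, urothelium and adipocyte lists limma called 0 markers in either contrast, against 10.2% and 2.69% of all genes. No marker of any list was at 0 in all 9 libraries.

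Genes that serve the same route were read from 7 lists with 90 genes, of which 75 passed the filter. In HU against GC, 11 of the 75 changed, 10 of them lower in HU, which is 14.7% against 10.2% of all genes (5.32% higher and 4.9% lower). In HU + 4-PBA against HU, 2 rose and 0 fell, which is 2.67% against 2.69% of all genes (1.16% higher and 1.53% lower), and in HU + 4-PBA against GC 0 changed with limma and 0 with limma-voom. Both counts changed when single libraries were left out, and so did the share of all genes called. Without HU + 4-PBA library 3 they were 27 and 17, which is 36% and 22.7% of the 75, against 19.8% and 11.5% of all genes. The count for HU against GC was 4 without HU library 1 (4.84% of all genes) and 2 without HU library 3 (2.96%). It was 0 without GC library 1 (0.632%) or 2 (1.87%), and 1 without GC library 3 (1.03%). Leaving out HU library 2 gave 10 (6.74%), and leaving out HU + 4-PBA library 1 or 2 gave 9 (7.07%) and 10 (9.84%). The count for HU + 4-PBA against HU was 1, lower in HU + 4-PBA, without HU + 4-PBA library 1 (0.607% of all genes). Apart from the 17 without HU + 4-PBA library 3, it was 0 without any other single library (0.00835 to 1.13%). With the mitochondrial share as a covariate the counts were 1 and 2, against 0.783% and 0.957% of all genes.

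Uptake comes first. Among 9 carriers of carboxylates, 2 fell in HU against GC, the organic anion transporters of the basolateral membrane Slc22a6 (OAT1) and Slc22a8 (OAT3). Of all genes, 4.9% fell in that contrast. Slc22a6 was listed at 105, 97.8 and 12.0 FPKM in HU + 4-PBA, at 7.49, 13.9 and 5.38 FPKM in HU, and at 84.3, 85.7 and 73.0 FPKM in GC. Its log2 difference was -3.14 for HU against GC (adjusted p = 0.0282, limma) and 2.47 for HU + 4-PBA against HU (adjusted p = 0.102, limma). Slc22a8 averaged 40.8 ± 23.6 FPKM in HU + 4-PBA, 7.72 ± 5.49 in HU and 63.1 ± 4.98 in GC (SD, n = 3). Its log2 difference was -3.07 for HU against GC (adjusted p = 0.0157, limma). The median over the 9 carriers was -1.09 for HU against GC and 0.61 for HU + 4-PBA against HU.

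Activation of other acids is the work of 19 further acyl-CoA synthetases. Of the 13 tested, 4 fell and 1 rose in HU against GC, with a median of -0.55, and 1 rose in HU + 4-PBA against HU, with a median of 0.24. Of all genes, 4.9% fell and 5.32% rose in the first contrast, and 1.16% rose in the second. Slc27a2, which takes up and activates long and very long chain fatty acids, rose in HU + 4-PBA against HU. It was listed at 539, 496 and 128 FPKM in HU + 4-PBA, at 37.5, 80.6 and 45.6 FPKM in HU, and at 556, 600.3 and 353 FPKM in GC. All HU libraries lay below all others, and the log2 difference was 2.63 for HU + 4-PBA against HU (adjusted p = 0.0435, limma) and -3.22 for HU against GC (adjusted p = 0.0146, limma). Slc27a1, a plasma membrane fatty acid transporter, fell by 1.50 on the log2 scale in HU against GC (adjusted p = 0.0222, limma). Aacs, which activates acetoacetate, fell by 1.39 (adjusted p = 0.0487), and Acss2, the acetyl-CoA synthetase of cytosol and nucleus, fell by 1.37 (adjusted p = 0.0287). Slc27a3, a relative of Slc27a1, rose by 1.06 on the log2 scale in limma's fit (adjusted p = 0.0446), with 4.08 ± 1.41 FPKM in HU and 1.38 ± 0.248 FPKM in GC (SD, n = 3).

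In the list of mitochondrial beta-oxidation no gene passed with the settings of the report. Of 18 genes, 0 were called by limma for HU against GC and 0 for HU + 4-PBA against HU. Those contrasts called 10.2% and 2.69% of all genes, and the list medians were -0.28 and 0.19. Over 22 alternative settings the counts ran from 0 to 3 and from 0 to 1. Etfb, a subunit of the electron carrier that takes electrons from acyl-CoA dehydrogenases, averaged 101 ± 53.1 FPKM in HU + 4-PBA, 34.5 ± 21.1 in HU and 96.6 ± 31.0 in GC (SD, n = 3), and its adjusted p for HU against GC was 0.102 from limma. Acadl, a long-chain acyl-CoA dehydrogenase, averaged 88.3 ± 23.8 FPKM in HU + 4-PBA, 61.2 ± 7.53 in HU and 109.9 ± 25.2 in GC (SD, n = 3), with an adjusted p of 0.115 for HU against GC from limma. The list covers the chain-shortening step through which phenylbutyryl-CoA passes. Etfb and Acadl were named for the lowest p in it, not for a known action on that compound.

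Glycine, the acceptor of the acyl group, and coenzyme A, its carrier, make up 2 further lists. Of 11 glycine genes tested 1 fell in HU against GC, where 4.9% of all genes fell, and the list had a median of -0.88. It was Sardh, the mitochondrial sarcosine dehydrogenase that forms glycine, at 29.0 ± 15.0 FPKM in HU + 4-PBA, 8.55 ± 0.247 in HU and 35.4 ± 10.5 in GC (SD, n = 3), with a log2 difference of -1.89 (adjusted p = 0.0287, limma). Of 11 genes of coenzyme A synthesis and turnover, 3 fell in HU against GC, with a median of -1.11, and 1 rose in HU + 4-PBA against HU, with a median of 0.82. Of all genes, 4.9% fell in the first contrast and 1.16% rose in the second. Slc25a42, the carrier that brings coenzyme A into mitochondria, was listed at 5.05, 6.66 and 6.31 FPKM in HU + 4-PBA, at 1.65, 2.14 and 2.48 FPKM in HU, and at 7.62, 5.22 and 6.34 FPKM in GC. It rose by 1.18 on the log2 scale in HU + 4-PBA against HU (adjusted p = 0.0396, limma) and fell by 1.25 in HU against GC (adjusted p = 0.0181, limma). Its level in HU + 4-PBA library 3 lay with those of libraries 1 and 2, as that of Acsm5 did. Vnn1, the pantetheinase that breaks down a coenzyme A product, fell by 2.07 in HU against GC (adjusted p = 0.0190, limma), and Pank4, a relative of the pantothenate kinases, fell by 1.22 (adjusted p = 0.0257, limma).

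The last 2 lists held 0 calls in each contrast with limma. Of all genes, 10.2% passed in HU against GC and 2.69% in HU + 4-PBA against HU. Over 22 alternative settings the thioesterases reached up to 4 and 1 calls in these contrasts, and the other N-acyltransferases up to 1 and 1. Of 11 thioesterase genes tested, which hydrolyse acyl-CoA, the median was -0.50 for HU against GC and 0.29 for HU + 4-PBA against HU. Acot4 averaged 5.47 FPKM in HU + 4-PBA, 3.06 in HU and 5.77 in GC, with an adjusted p of 0.0715 for HU against GC from limma. Of 5 other N-acyltransferases 2 could be tested, Acnat1 and Acnat2, which are relatives of the bile acid conjugating enzyme. Acnat1 averaged 1.23 FPKM in HU + 4-PBA, 3.16 in HU and 1.71 in GC, and Acnat2 averaged 7.49 FPKM in HU + 4-PBA, 11.4 in HU and 11.5 in GC. Glyatl3, a glycine N-acyltransferase-like gene, had 0 in every library, and Gm4952, which lies beside Glyat, reached at most 0.648 FPKM.

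**Figure D5:**
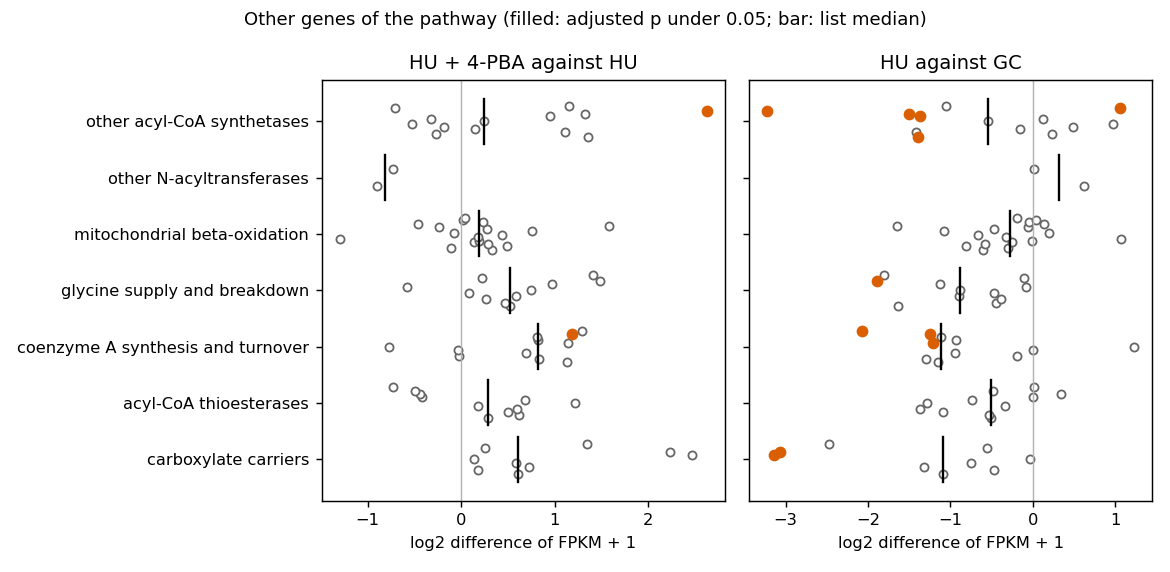
Log2 difference, on the log2(FPKM + 1) scale, of each gene tested in the 7 lists of the route, for HU + 4-PBA against HU and HU against GC; filled points passed an adjusted p of 0.05 and upright bars are list medians. In HU against GC, 10 genes passed lower and 1 higher, and in HU + 4-PBA against HU 2 passed, both higher.

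The members differed in which genes of the whole table had the most similar profile over the 9 libraries, measured by the mean absolute difference of log2(FPKM + 1) centred on each gene's mean, over 10927 protein-coding genes. For Acsm2 these were Car4, a membrane-bound carbonic anhydrase, at 0.16, Ebp, an enzyme of cholesterol synthesis, at 0.20, and Fuca2 at 0.20, where the median gene lay at 1.23. For Acsm5 they were Prodh, the proline dehydrogenase of mitochondria, at 0.12, Mtx1 at 0.16 and Alg5 at 0.16, where the median gene lay at 0.73. For Glyat they were Acot12, an acetyl-CoA thioesterase, at 0.10, Gatb at 0.12 and Entpd6 at 0.15, with a median of 0.57. For Keg1 they were Akr1c21 at 0.16, Nudt19, a coenzyme A diphosphatase, at 0.18 and Slc16a4 at 0.20, with a median of 0.83. For Acsm1 they were Mbl1 at 0.22, Myo7b, a motor of the brush border, at 0.23 and Slc34a3, a phosphate carrier of the proximal tubule, at 0.23, with a median of 0.80. For Acsm3 they were Pdzk1, a scaffold of brush border carriers, at 0.25, Pcyt1a at 0.29 and Angpt2 at 0.30, with a median of 0.85. Several of these similar genes fell under 1 FPKM in some library, where the 1 added before the logarithm weighs most. Examples are Mbl1 (0 to 2.15 FPKM), Myo7b (0.0506 to 5.05 FPKM) and Entpd6 (0.421 to 4.84 FPKM). Among the members, Acsm5 and Glyat were closest, at 0.30, and Acsm2 and Acsm3 farthest apart, at 1.50. Acsm3 lay at 1.05 to 1.50 from each of the others.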

How the data were processed

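Values were FPKM for 54532 genes in 9 libraries, as deposited by the authors. Per the submitters' processing notes, CASAVA, cutadapt, HISAT2 and mm10 were used; the sources used here give no read counter, annotation or version. Each value times gene length and a constant fitted to each library, which was not its read total, came within 0.01 of a whole number of reads, and this gave the reads quoted here and the input of limma-voom. The design allowed for a count test; FPKM were deposited, so limma 3.58.1 (R 4.3.3, empirical Bayes with trend) was fitted to log2(FPKM + 1) over all 9 libraries in 3 groups. Genes needed 1 FPKM in 3 libraries (12642 genes), with Benjamini-Hochberg adjustment over all of them at 0.05. The fit was tested on simulated data. Libraries compared in pairs all differed by more than sampling noise. Named were the 7 members, up to 6 called genes a list (or the 2 with the lowest p), and the 3 most similar genes a member. Members and lists were chosen with earlier results of these data known. Gcat, whose symbol 2 genes share, got no value. Sequences came from RefSeq promoters and GENCODE transcripts. Python 3.11.15, matplotlib 3.10.9 and Biopython 1.88 were used. Alternatives covered scaling, pseudocount, filter, libraries left out, block, covariate, weights and limma-voom. The counts of listed genes under each were added after seeing the data.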

Additional observations from a re-analysis of the deposited data

How the results depend on the processing

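Members passing in HU against GC numbered 0 with the settings of the report (10.2% of all genes), 4 with scaling by total reads (17.7%), 3 with only the 6 libraries compared (13.9%), 3 with limma-voom (10.5%), 5 with library weights (31.5%), 2 without HU + 4-PBA library 3 and GC library 3 (13.4%), and 1 among protein-coding genes only (11%); leaving out 1 library gave 0 to 5 (0.632 to 19.8%). For HU + 4-PBA against HU they numbered 1 with total reads (5.06% of all genes), 4 with weights (16.2%) and 2 without both libraries (10.8%), and leaving out 1 gave 0 to 2 (0.00835 to 11.5%). HU + 4-PBA against GC gave 0 throughout, with leave-one-out counts of 0 to 0. A replicate block gave 0, 0 and 0 members, with 904, 137 and 0 genes called in all. Pairing was examined between libraries of different groups, on log2(FPKM + 1) after each gene's group mean was taken out. On these remainders, same-numbered libraries correlated at -0.20 to 0.29 and differently numbered ones at -0.33 to 0.31. These ranges showed no sign of pairing by number, but 3 libraries a group are too few to exclude it. The cause of the shifts in the counts was not tested.

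Scaling by total reads moved the median of all genes to -0.78 (HU against GC) and 0.72 (HU + 4-PBA against HU), and called 242 genes higher and 2031 lower, then 554 and 96; the report's settings called 672 and 620, then 147 and 193. Scaling by all reads other than mitochondrial ones gave medians of 0.18 and -0.12, with 1011 and 478, then 140 and 316. Differences that changed sign under total-read scaling were -0.14 for Acnat1 and -0.95 for Acnat2 (HU against GC), and 0.047 for Acsm3 and 0.19 for Acnat2 (HU + 4-PBA against HU). With the mitochondrial covariate they were 0.014 for Keg1 (HU against GC), and -0.71 for Keg1 and -0.094 for Acadl (HU + 4-PBA against HU). Acnat2 in HU against GC took -0.21 with weights, -0.27 without HU library 1, -0.28 without GC library 3 and -0.28 without both libraries. In HU + 4-PBA against GC, Acsm2 gave 0.35 with weights, 0.24 without both libraries and -1.01 to 0.43 when 1 library was left out, the highest without HU + 4-PBA library 3. Acsm3 took -0.36 without HU + 4-PBA library 1, -0.11 without GC library 3 and up to 0.76 without GC library 2. Over 22 alternatives, genes called in the 7 lists numbered 0 to 33 in HU against GC and 0 to 20 in HU + 4-PBA against HU. Acsm4, with at most 7 reads, is limited by depth.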

Other observations

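The neighbours of the synthetase cluster gave values of their own. Umod, the uromodulin gene of the thick limb, lies within 200 kb of Acsm5 and was listed at 500.3, 227 and 32.5 FPKM in HU + 4-PBA, at 81.8, 62.7 and 104 FPKM in HU, and at 254, 220 and 85.4 FPKM in GC. HU + 4-PBA library 3 again held the lowest value, and HU and GC overlapped. Gm19950, annotated as an antisense gene within Acsm1 with 0 exon bases shared, was listed at 24.2, 37.3 and 19.0 FPKM in HU + 4-PBA, at 15.8, 14.3 and 18.9 FPKM in HU, and at 37.0, 33.3 and 31.6 FPKM in GC. Its HU libraries lay below all others, as a description without a test. Whether the counting used strand is not stated, so reads from Acsm1 introns and from Gm19950 cannot be told apart. Thumpd1, which lies between Acsm4 and Acsm3, stood at 5.29, 2.89 and 3.20 FPKM in HU + 4-PBA, 7.86, 2.35 and 6.43 FPKM in HU, and 3.03, 3.67 and 2.40 FPKM in GC, where the groups overlapped.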
